A study of Gallus gallus with 6 samples.

Results

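The let-7 main products were taken as every miRNA in the deposited table whose name is let-7 with 1 letter, with the 5p suffix or with no arm suffix. This gave 9 of the 565 listed mature miRNAs, namely let-7a-5p, let-7b, let-7c-5p, let-7d, let-7f-5p, let-7g-5p, let-7i, let-7j-5p and let-7k-5p. They were measured by small RNA sequencing in the liver of female Lushi chickens, a Chinese domestic breed that lays green-shelled eggs. There were 3 hens at 20 weeks of age (L20, labelled juvenile, before laying) and 3 hens at 30 weeks (L30, labelled egg-laying, at peak laying), with 1 library per hen and no treatment at either age. Housing and feeding were described as alike at both ages, and age and laying state cannot be told apart. The comparison asked which hepatic miRNAs differ between hens before and at the peak of laying.

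The let-7 miRNAs are among the oldest known animal miRNAs. Let-7 was found in the worm Caenorhabditis elegans as a switch between developmental stages, and in vertebrates its level is low in early embryonic and dividing cells and high in mature tissues. Each member is cut from a hairpin precursor, and the 5p strand is usually the one loaded into the silencing complex while the 3p strand is degraded. The members share a seed, the stretch near the 5′ end that pairs with target mRNAs. The RNA-binding protein LIN28 blocks the maturation of most let-7 precursors. In mammals, let-7 represses growth genes of the RAS, MYC and HMGA2 type and several genes of insulin signalling, which is why it has been studied in liver metabolism. In the chicken RefSeq annotation, 11 let-7 hairpins were found. Let-7d, let-7f and let-7a-1 follow one another with no other miRNA between them, as do let-7a-3 and let-7b, and let-7j and let-7k. Let-7c lies between miR-99a and miR-125b, and let-7a-2 is next to miR-125b-1, whereas let-7g and let-7i have no let-7 neighbour. RefSeq calls the let-7j gene MIRLET7E, the let-7k gene MIRLET7A1 and the let-7a-1 gene MIRLET7F2. Let-7a-5p can come from any of 3 hairpins in the deposited table, so its reads could not be assigned to 1 locus.

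The libraries held between 14913255 and 27180553 reads in L20 and between 15124850 and 21846238 in L30, as implied by the deposited counts and TPM values. Between 7135289 and 14822854 of them fell on the listed miRNAs in L20, and between 3864984 and 8804077 in L30. In the order of the library numbers, which is kept throughout, they made up 56.3%, 54.5% and 47.8% of all reads at 20 weeks and 42.6%, 29.5% and 17.7% at 30 weeks. L30-3 had the smallest miRNA share. A level in CPM below is the count of a miRNA scaled to the counted miRNA reads of its library, and a level in TPM is scaled to all its reads, as the authors deposited it. TPM thus also moves with the miRNA share of a library, so the calls are given on both scales. The liver label was checked with 21 marker miRNAs of 8 cell or tissue types, all with reads in every library. The hepatocyte miRNA miR-122-5p had 48600 to 68225 TPM in L20 and 12372 to 35686 in L30, against at most 26.2 TPM for the muscle miRNA miR-133a-3p and 18.3 TPM for the neural miRNA miR-9-5p.

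The let-7 family took a larger part of the counted miRNA reads in L30 than in L20. The 9 members together took 3.56%, 2.84% and 3.27% of the counted reads of the L20 livers, and 6.12%, 6.52% and 7.70% of those of the L30 livers. The means were 3.22% ± 0.362 and 6.78% ± 0.821 (SD, n = 3 each), a ratio of 2.10, and the ages did not overlap. Let-7f-5p alone did not carry the difference, since the other 8 members went from 1.62% ± 0.196 to 2.98% ± 0.258 (SD, n = 3 each), a ratio of 1.84. Scaled to all reads, the sum was 20056, 15507 and 15629 TPM in L20 and 26055, 19236 and 13620 TPM in L30. On that scale the ages overlapped, at 17064 ± 2592 and 19637 ± 6227 TPM (SD, n = 3 each). The order of the L30 libraries was opposite on the CPM and TPM scales. L30-3, with the smallest miRNA share of its reads, had the highest let-7 share of counted reads and the lowest let-7 TPM. The part of the miRNA share in the let-7 difference was not tested. A sum over members chosen with earlier results known was given no test.

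**Figure D1:**
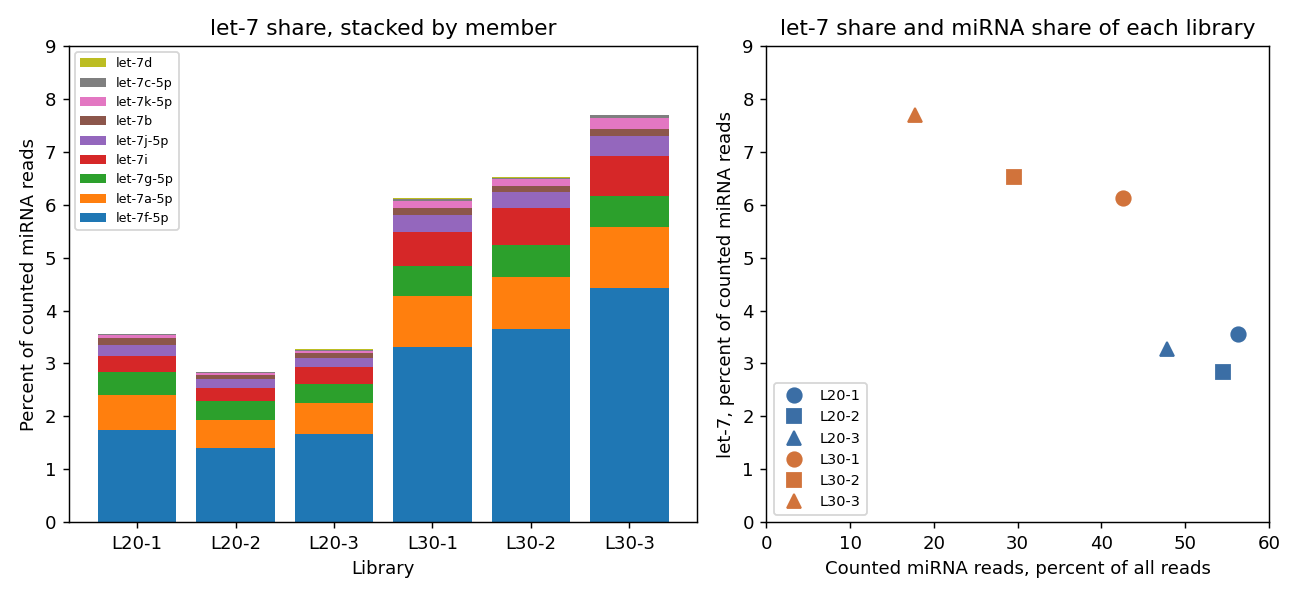
Left, percent of the counted miRNA reads taken by the 9 let-7 members in each library, stacked by member. Right, the same summed percent against the percent of all reads counted on miRNAs, 1 point per library; the L20 libraries lie between 2.84% and 3.56% and the L30 libraries between 6.12% and 7.70%.

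Within the family, let-7f-5p was the main product at both ages. It made up 48.7% to 57.4% of the let-7 reads of a library, with a mean of 52.8% ± 3.62 (SD, n = 6). Let-7a-5p followed with 16.8% ± 1.76, let-7g-5p with 10.3% ± 1.96 and let-7i with 9.59% ± 0.944. Let-7j-5p had 5.39% ± 0.531, let-7b 2.48% ± 0.756 and let-7k-5p 1.91% ± 0.595. Let-7c-5p and let-7d were the least abundant, with 0.579% ± 0.158 and 0.0815% ± 0.0156. Among all 565 listed miRNAs, let-7f-5p ranked between 11 and 13 by count in the L20 libraries and 6 or 7 in the L30 libraries. Let-7k-5p ranked between 61 and 71 at 20 weeks and between 34 and 41 at 30 weeks.

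Most steps in this order were the same in every library. The upper member of each neighbouring pair had more reads in 6 of 6 libraries for 6 of the 8 pairs. Let-7f-5p had 2.57 to 3.82 times the reads of let-7a-5p, and let-7c-5p had 3.00 to 10.4 times the reads of let-7d. In 2 pairs the order was not fixed. Let-7g-5p exceeded let-7i in 3 libraries and let-7b exceeded let-7k-5p in 3 libraries, in both cases the L20 libraries. The L30 libraries had the reverse order, so the order by the mean over all 6 libraries does not describe these pairs. The authors' alignment tolerated mismatches and shortened or extended ends, and let-7 members differ from one another at few bases, so reads of one member could have been counted for another. This leaves the level of each single member uncertain. Adapter ligation can also favour some small RNAs, which touches comparisons between members but less those of 1 member between libraries.

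**Figure D2:**
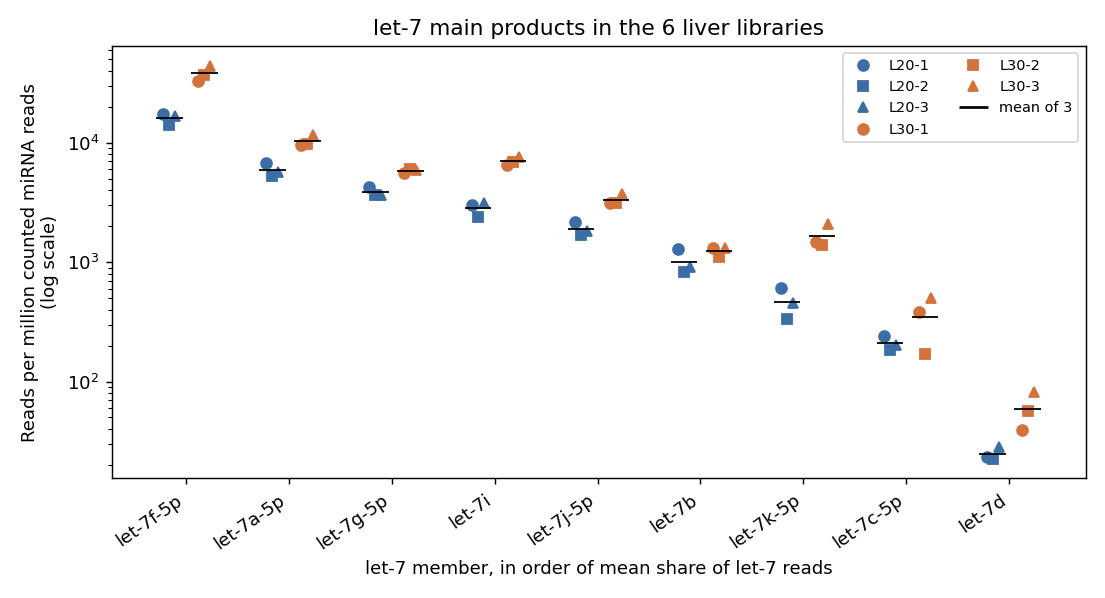
CPM (log axis) of each let-7 member in each library, with the mean of 3 libraries per age as a line. The L30 points lie above all L20 points for 7 of the 9 members and overlap for let-7b and let-7c-5p.

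Scaled to the counted miRNA reads, 7 of the 9 members rose in L30 and 0 fell (edgeR quasi-likelihood test, Benjamini-Hochberg adjusted p at most 0.05 over the 235 miRNAs tested). Of all tested miRNAs, 12.8% were called higher on this scale and 16.2% lower. All 9 members had a positive log2 fold change, with a median of 0.82, where the median of all tested miRNAs was −0.07. The change ranged from 0.30 for let-7b to 1.82 for let-7k-5p. For 7 members all L30 libraries exceeded all L20 libraries, which held for 20.4% of all tested miRNAs. Each of the 9 members passed the filter on low counts. Let-7a-5p and let-7j-5p, both among the 7, kept nearly the same proportion of reads in every library, as given below. The 7 calls are thus not all separate observations.

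Let-7k-5p, cut from the hairpin next to let-7j, had the largest change in the family. It had 606, 332 and 453 CPM in the L20 libraries and 1466, 1381 and 2078 in the L30 libraries. The gap between the ages was wider than the spread within L20. Its log2 fold change was 1.82 ± 0.28 (SE), with an adjusted p of 0.00396 by edgeR. Let-7i, the product of a hairpin that stands alone, had 3021, 2404 and 3140 CPM in L20 and 6476, 6847 and 7629 in L30. The ages lay further apart than the libraries within either age, and its log2 fold change was 1.29 ± 0.18 (SE), with an adjusted p of 0.00327 by edgeR.

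The neighbouring hairpins let-7f and let-7d gave the most and the least abundant member and changed by a similar factor. Let-7f-5p had 17342, 14038 and 16745 CPM in L20 and 33143, 36575 and 44219 in L30, a log2 fold change of 1.24 ± 0.18 (SE), with an adjusted p of 0.00338 by edgeR. Let-7d had 23.2, 22.5 and 28.5 in L20 and 39.6, 56.2 and 81.8 in L30. The ages did not overlap for either miRNA, and the L30 libraries of let-7d were spread over a wider range. The log2 fold change of let-7d was 1.26 ± 0.30 (SE), with an adjusted p of 0.0174 by edgeR. It rested on 203 to 349 reads per library, and its Wilson 95% intervals reached 13.8% of the value on either side, against at most 3.45% for the 7 members above let-7c-5p. These intervals cover counting error only and not the spread between hens. PCR copies were not told apart by molecular identifiers, so the intervals can be too narrow even for counting error.

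Let-7a-5p, let-7j-5p and let-7g-5p rose by smaller amounts. Let-7a-5p had 6747, 5279 and 5716 CPM in L20 and 9651, 9804 and 11573 in L30, a log2 fold change of 0.81 ± 0.17 (SE), with an adjusted p of 0.0117 by edgeR. Let-7j-5p had 2149, 1683 and 1827 in L20 and 3112, 3154 and 3742 in L30, a log2 fold change of 0.82 ± 0.18 (SE), with an adjusted p of 0.0119 by edgeR. For both, the gap between the ages was wider than the spread of the L20 libraries. Let-7j-5p and let-7a-5p kept nearly the same proportion of reads in every library. They had 25290 and 79388 reads in L20-1, 24947 and 78254 in L20-2 and 13036 and 40784 in L20-3. In L30-1 they had 27395 and 84971, in L30-2 14083 and 43770 and in L30-3 14463 and 44728. Both members are thus not separate observations, and whether the same reads were divided between them was not tested. Let-7g-5p had 4227, 3658 and 3640.1 in L20 and 5611, 6076 and 5850.0 in L30, a log2 fold change of 0.61 ± 0.16 (SE), with an adjusted p of 0.0236 by edgeR. Relative to their mean, its L30 libraries differed less among themselves than those of any other member.

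Let-7c-5p and let-7b did not pass the test. Let-7c-5p, whose hairpin lies with those of miR-99a and miR-125b, had 240.4, 185 and 201 CPM in L20 and 385, 168 and 497 in L30. L30-2 lay under all L20 libraries while L30-1 and L30-3 lay above them. Its log2 fold change was 0.74 ± 0.37 (SE), with an adjusted p of 0.157 by edgeR. Without L30-2 let-7c-5p was called, with a log2 fold change of 1.08 and an edgeR adjusted p of 0.0192. Let-7b had 1279, 833 and 915 in L20 and 1310.2, 1106 and 1315 in L30, and L20-1 lay within the range of the L30 libraries. Its log2 fold change was 0.30 ± 0.22 (SE), with an adjusted p of 0.317 by edgeR.

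The number of members called depended on single L20 libraries. Without L20-2 or without L20-3, only let-7k-5p, let-7i and let-7f-5p were called, 3 of 9 in each case. With any other library left out, 6 or 7 were called. These 3 members were called in each of the 6 fits that left out a library, with edgeR adjusted p from 0.0078 to 0.0261. Let-7a-5p, let-7j-5p and let-7d were called in 4 of the 6 fits each. Let-7g-5p was called in only 2 of the 6, with edgeR adjusted p from 0.0252 to 0.0935.

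In TPM, 0 of the 9 members were called by edgeR, by DESeq2 or by limma, and the unadjusted p of edgeR was at most 0.05 for 0 of them. Of the 236 miRNAs tested on this scale, 0% were called higher and 31.8% lower. The log2 fold changes of the members ranged from −0.53 for let-7b to 0.92 for let-7k-5p, with 4 positive and 5 negative values. Their median was −0.04, where the median of all tested miRNAs was −0.93. Let-7f-5p had 9760.2, 7656 and 8012 TPM in L20 and 14112, 10796 and 7823 TPM in L30, with L30-3 under 2 of the 3 L20 libraries. Let-7i had 1700.3, 1311 and 1502 TPM in L20 and 2757.5, 2021 and 1349.7 in L30, again with L30-3 among the L20 libraries. Let-7k-5p had 341, 181 and 217 TPM in L20 and 624, 408 and 368 in L30. It was, with let-7d, 1 of 2 members for which every L30 library stayed above every L20 library, against 2.54% of all tested miRNAs, and its edgeR adjusted p was 0.153. Let-7d had 13.1, 12.3 and 13.6 TPM in L20 and 16.9, 16.6 and 14.5 in L30, with an edgeR adjusted p of 0.711.

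The distance between the members and the other miRNAs moved little with the scale, because a library size acts on all miRNAs of a library alike. The median log2 fold change of the members exceeded that of all tested miRNAs by 0.90 on the counted reads and by 0.89 on the total reads. With the 8 scalings that were run the distance lay between 0.88 and 0.93. Let-7k-5p, let-7i, let-7d and let-7f-5p had a positive log2 fold change under each of the 8. The sign of let-7a-5p, let-7c-5p, let-7g-5p, let-7j-5p and let-7b depended on the scaling. Since a share rises when other miRNAs fall, these data give the change of let-7 relative to other miRNAs and not in molecules per cell. In whole liver, fewer cells of a type and less RNA per cell cannot be told apart.

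**Figure D3:**
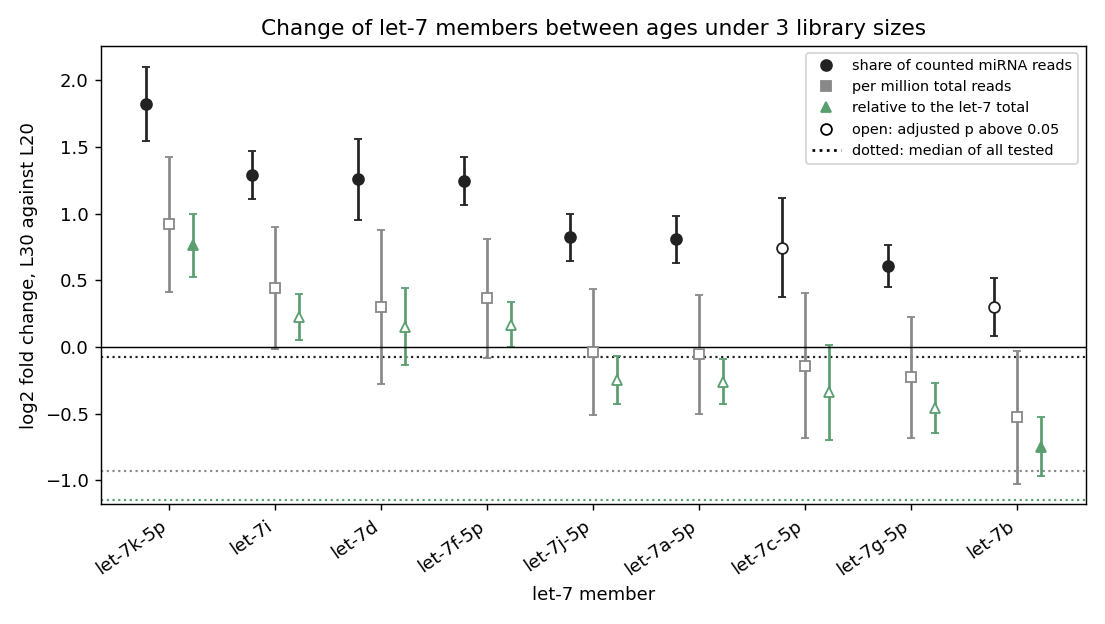
log2 fold change (L30 against L20) of each let-7 member with its edgeR standard error, with the counted, the total and the let-7 reads as library size. Dotted lines mark the median of all tested miRNAs on each scale, and the members lie above the median of their scale in every case.

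Several cell type markers were lower in L30 on both scales. In CPM, 7 of the 21 marker miRNAs were called lower, among them the 3p arm of miR-122, 0 were called higher and 14 were not called (edgeR adjusted p at most 0.05), where 16.2% of all tested miRNAs were called lower. On the total reads 15 of the 21 were called lower and 0 higher, where 31.8% of all tested miRNAs were called lower. These 15 included miR-122-5p, with a log2 fold change of −1.14 ± 0.44 (SE) and an edgeR adjusted p of 0.0378. The 2 arms of the endothelial miR-126 together had 56766 to 73761 CPM in L20 and 30113 to 35547 in L30. The 4 leukocyte markers had 9430.0 to 11623 and 5193 to 8535, and the 3 erythroid markers 3255 to 5699 and 1584 to 2660. These 3 sums did not overlap between the ages, nor did those of the epithelial and neural markers, whereas the mesenchymal and muscle sums overlapped. In CPM, 64 of the 235 tested miRNAs lay lower in every L30 library. The hepatocyte miR-122 arms had 89729 to 127578 and 70981 to 94660, with overlapping ages. In TPM the miR-122 arms together had 49671 to 69574 in L20 and 12558 to 36208 in L30. The sums of 6 of the 8 types lay lower in every L30 library, those of the mesenchymal and muscle markers overlapping. On this scale 47.5% of all tested miRNAs also lay lower in every L30 library. The part of cell composition in the let-7 shares was not tested.

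The members did not move by the same factor, and the composition of the family shifted. When the let-7 reads themselves were taken as the library size, let-7k-5p was higher in L30 and let-7b was lower, and the other 7 members were not called. On this scale 2.15% of all tested miRNAs were called higher and 58.8% lower. Let-7k-5p went from 1.42% ± 0.268 of the let-7 reads in L20 to 2.40% ± 0.290 at 30 weeks (SD, n = 3 each). Its log2 fold change on this scale was 0.76 ± 0.23 (SE), with an adjusted p of 0.0199 by edgeR. Let-7b went from 3.11% ± 0.422 to 1.85% ± 0.253, a log2 fold change of −0.75 ± 0.22 (SE), with an adjusted p of 0.0161 by edgeR. Neither call was held by all fits that left out a library. Let-7k-5p was not called without L20-2 or L20-3, and let-7b was not called without L20-1 or L30-2.

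The shares of 5 further members of the 9 also did not overlap between the ages, although their changes did not pass the test. Let-7f-5p took 48.7%, 49.4% and 51.3% of the let-7 reads in L20 and 54.2%, 56.1% and 57.4% in L30. Let-7a-5p took 18.9%, 18.6% and 17.5% in L20 and 15.8%, 15.0% and 15.0% in L30. Let-7g-5p took 11.9%, 12.9% and 11.1% in L20 and 9.17%, 9.32% and 7.60% in L30, with an edgeR adjusted p of 0.0573. Let-7i was higher and let-7j-5p lower in each L30 library than in any L20 library. The shares of a library add up to a whole, so a rise of let-7f-5p lowers the sum of the others. Let-7a-5p and let-7j-5p also kept nearly the same proportion, so these shifts are not separate from one another. On this scale all L30 libraries exceeded all L20 libraries for 4.72% of the tested miRNAs and lay under them for 67.8%. Nearly all of these miRNAs lie outside let-7, and the let-7 sum rose relative to the counted reads. These percentages are thus no base rate for shares within the family, and neither are the percentages called on this scale.

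Ratios between members need no library size. Of the 36 ratios between 2 members, 21 did not overlap between the ages, or 58.3%, against 45.6% of the ratios between any 2 tested miRNAs with reads in every library. Let-7a-5p and let-7j-5p kept nearly the same proportion in every library, so ratios with one nearly repeat those with the other. The 58.3% can thus not be read as an excess over the 45.6%. The ratios given here are those of the 4 pairs with adjacent hairpins and of the 2 pairs whose order was not fixed, the latter chosen after their values were seen. Among the 4 adjacent pairs, the ages overlapped only for let-7f-5p to let-7d. The others had p = 0.1 each (exact two-sided permutation test), which is the lowest value possible with 3 libraries per age. The 2 further pairs were known to turn their order between the ages when they were picked. Their lack of overlap thus follows from the choice and is no separate result. The ratio of let-7j-5p to let-7k-5p, whose hairpins are adjacent, was 3.54, 5.06 and 4.04 in L20 and 2.12, 2.28 and 1.80 in L30. The decrease was larger than the spread within either age. Whether the let-7j-5p reads came from the let-7j hairpin alone was not tested. The ratio of let-7k-5p to let-7b was 0.474, 0.399 and 0.495 in L20 and 1.12, 1.25 and 1.58 in L30, so that their order turned between the ages. The order of let-7i and let-7g-5p turned as well, with ratios of 0.715, 0.657 and 0.863 in L20 and 1.15, 1.13 and 1.30 in L30. The ratio of let-7f-5p to let-7a-5p went from 2.72 ± 0.187 to 3.66 ± 0.202 (SD, n = 3 each), and that of let-7a-5p to let-7b from 5.95 ± 0.587 to 8.35 ± 0.848. Since let-7a-5p can come from 3 hairpins, these ratios do not compare the products of the adjacent hairpins alone. For the adjacent let-7f-5p and let-7d the ratio overlapped between the ages, at 653 ± 83.6 and 676 ± 149 (exact two-sided permutation test, p = 0.9).

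Among the 3p products of the let-7 hairpins, 1 rose and 0 fell on the CPM scale. The table lists 7 of them, of which 6 passed the filter on low counts, so that 1 of 6 was called higher where 12.8% of all tested miRNAs were. Together the 3p products took 0.0142% ± 0.000868 of the counted reads in L20 and 0.0124% ± 0.00156 in L30 (SD, n = 3 each). In CPM, the log2 fold change of 5 of the 6 lay between −0.45 and −0.17, and none of these 5 was called (edgeR adjusted p from 0.203 to 0.624). Let-7a-2-3p was the exception. It had 5.44, 4.18 and 5.19 CPM in L20 and 12.5, 10.8 and 9.83 in L30, a log2 fold change of 1.16 ± 0.31 (SE), with an adjusted p of 0.026 by edgeR, which rested on 37 to 110 reads per library. Let-7c-3p had 1 or 2 reads in each library, below the limit of 3 counts. In TPM, the sum of the 3p products was 75.3 ± 10.02 in L20 and 38.2 ± 20.4 in L30 (SD, n = 3 each). On that scale 5 of the 6 lay lower in every L30 library, as did 47.5% of all tested miRNAs, and edgeR called 0, with an unadjusted p of at most 0.05 for 1. Relative to the let-7 total, the same 5, all but let-7a-2-3p, were called lower, as were 58.8% of all tested miRNAs.

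The ratio of 5p to 3p reads was higher in L30 for 5 let-7 names whose products of the same name both had 10 or more reads in every library, and it was not for let-7a-5p against let-7a-2-3p. For let-7f it was 696, 455 and 720 in L20 and 1452, 1856 and 2897 in L30. For let-7k it was 25.2, 16.7 and 19.3 in L20 and 63.6, 81.1 and 106 in L30. For let-7j it was 38.9, 27.9 and 40.2 in L20 and 63.0, 71.9 and 91.0 in L30. The L30 libraries lay well above the L20 libraries for these 3, with changes of 1.70, 2.02 and 1.08 on the log2 scale. For let-7g the ratio was 529, 237 and 309 in L20 and 561, 617 and 942 in L30, a change of 1.02. The deposited table assigns let-7a-5p to 3 hairpins, let-7a-3p to the hairpin let-7a-3 and let-7a-2-3p to the hairpin let-7a-2. Against let-7a-3p, the ratio of let-7a-5p was 279, 265 and 236 in L20 and 419, 568 and 630 in L30, a change of 1.04. Against let-7a-2-3p it was 1240.4, 1262 and 1102 in L20 and 772, 912 and 1177 in L30, a change of −0.35 with overlapping ages (exact two-sided permutation test, p = 0.2). Against both 3p products together it was 227, 219 and 194 in L20 and 271, 350.2 and 410.3 in L30, a change of 0.67. The 5 ratios between products of the same name lay higher in every L30 library than in any L20 library (exact two-sided permutation test, p = 0.1 each, the smallest possible). Of the 48 miRNAs with both products of the same name at this count, the ratio of the main to the other product lay higher in every L30 library for 33.3% and lower for 33.3%. The median change over the 5 let-7 names was 1.08, and over the 43 others it was −0.30. The 5 are not independent, since let-7a-3p and let-7k-3p had nearly equal counts in every library, for example 295 and 295 in L20-2 and 203 and 203 in L30-1. The 5p products let-7a-5p and let-7j-5p also kept nearly the same proportion in every library, so the let-7a and let-7j ratios are linked as well.

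**Figure D4:**
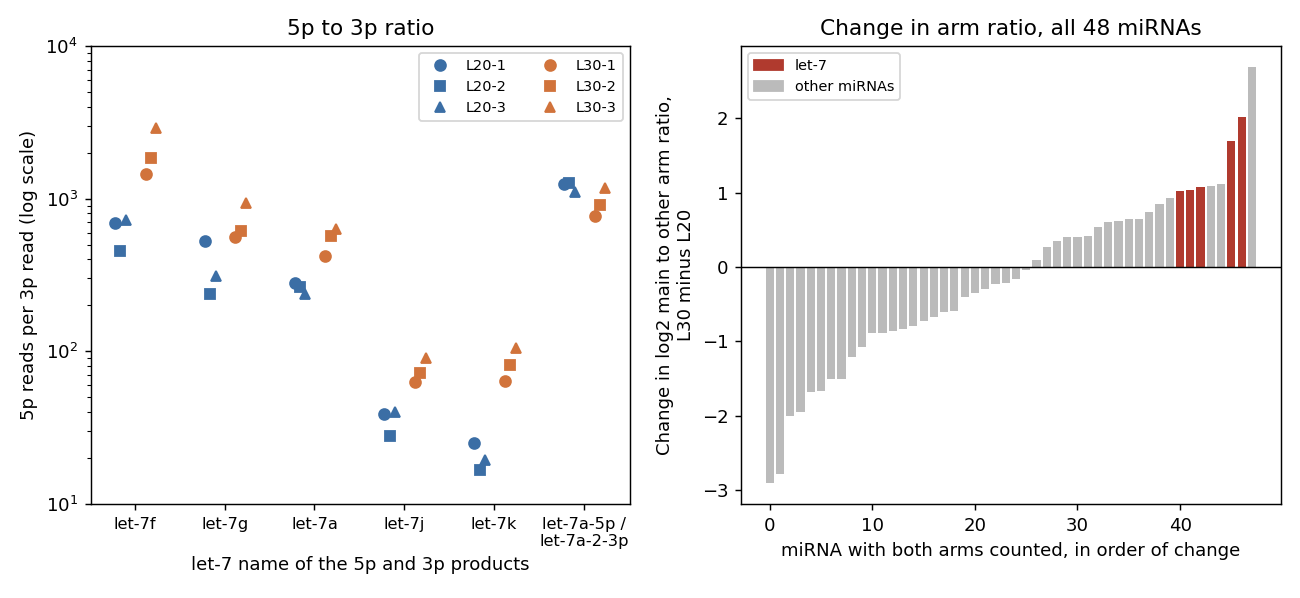
Left, reads of the 5p product per read of the 3p product (log axis) for 5 let-7 names in each library, and for let-7a-5p against let-7a-2-3p, the only ratio shown that was not higher in L30. Right, change in the log2 ratio of the main to the other product from L20 to L30 for all 48 miRNAs with both products of the same name at 10 or more reads in every library, in order; the let-7 names changed by 1.02 to 2.02.

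The calls of a fixed list of miRNAs, taken as cluster partners of let-7, differed between scales. MiR-100 is on this list but was not a direct neighbour of a let-7 hairpin in RefSeq. Of the 6 listed products of miR-99a, miR-100 and miR-125b, edgeR called 0 on the CPM scale, where 12.8% of all tested miRNAs were called higher and 16.2% lower, and its unadjusted p was at most 0.05 for miR-125b-5p only. On the total reads 1 of the 6 was called lower, miR-99a-3p, with a log2 fold change of −1.50 and an edgeR adjusted p of 0.0459, where 31.8% of all tested miRNAs were called lower. Relative to the let-7 total 4 of the 6 were called lower, against 58.8%. MiR-125b-5p had a CPM log2 fold change of 0.89 ± 0.32 (SE), with an adjusted p of 0.0629 by edgeR. It had 3747, 1901 and 1796 CPM in L20 and 5273, 5118 and 3435 in L30. The median log2 fold change of the 6 was 0.00 in CPM, against −0.07 for all tested miRNAs, and −0.82 on the total reads, against −0.93. MiR-100-5p, the most abundant of them, had 19229, 19466 and 14081 in L20 and 18140.0, 19001.5 and 12047 in L30.

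Outside the family, the miRNAs whose log2 share of counted reads was most like the summed let-7 share over the 6 libraries were miR-375, miR-456-3p, miR-1731-5p, miR-1563 and miR-2131-3p. Their Pearson correlations with it were 0.98, 0.98, 0.98, 0.97 and 0.97, the 5 highest among the 226 other tested miRNAs, and all are a description over 6 points that share the age difference and the library totals. MiR-375, known as a miRNA of endocrine cells, had a mean of 808 CPM in L20 and 2542 in L30, and of 429 and 704 TPM, with an edgeR adjusted p of 0.00338 on the CPM scale and 0.250 on the total reads. MiR-375 was picked for its likeness to a sum that did not overlap between the ages. Its adjusted p on the CPM scale is thus no separate result. Of the other 4, miR-456-3p had a mean of 101 CPM in L20 and 383 in L30. The remaining ones were low, so their correlations rest on few reads. Their means in L20 and L30 were 1.22 and 4.52 CPM for miR-1563, 4.14 and 11.4 for miR-1731-5p, and 6.94 and 14.2 for miR-2131-3p. MiR-1731-5p and miR-2131-3p overlapped between the ages in TPM. Within the family, 7 members correlated with the sum at 0.94 or more, let-7b at 0.73 and let-7c-5p at 0.62. These values hold each member's own part in the sum.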

How the data were processed

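Small RNA of 6 chicken livers was sequenced by the authors, who filtered reads with Fastx and aligned them to chicken miRBase with CLC Genomics Workbench, tolerating mismatches and shifted ends. The authors deposited raw read counts and TPM values for 565 mature miRNAs. The deposited TPM equals the count scaled to 1 total per library, and this total was recovered from both columns. All columns were mapped to samples by name (0 left out). EdgeR 4.0.16 (R 4.3.3) was used for the main test of the counts, by robust quasi-likelihood fits after filterByExpr (count minimum 10, total minimum 15), with the summed counts, the total reads or the summed let-7 counts as library size. P values were adjusted by Benjamini-Hochberg over all tested miRNAs, with a threshold of 0.05. Fold changes are L30 against L20.

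Alternatives were DESeq2 1.42.0, limma 3.58.1 on log2(value + 1), Fisher's exact test on pooled counts (the kind of test the authors used), other filters and scalings, clean reads as totals, each library left out, and a block for the replicate number. A limit of 3 counts is between 0.202 and 0.776 CPM (reads scaled to the counted miRNA reads). The scripts were tested on simulated data. Described were all members, all let-7 3p products, a fixed list of cluster partners, 26 fixed cell type markers, of which 21 were matched, and the 5 miRNAs most correlated with the let-7 sum. The members and lists were chosen with earlier results of these data known. Names and gene neighbours came from RefSeq (GRCg7b). No build was stated for the miRNA counts, so coordinates were not used here. Figures were drawn with matplotlib 3.10.9.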

Additional observations from a re-analysis of the deposited data

How the results depend on the processing

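On the counted-read scale, between 3 and 7 members were called with each library left out, and 6 to 9 under the other tests, filters and scalings, all as higher in L30. TMM factors left 6, without let-7g-5p (log2 fold change 0.43, edgeR adjusted p = 0.0611). Without a filter let-7c-5p was called and let-7g-5p was not. Fisher's exact test on pooled counts, which ignores the spread between hens, called 9 members on the total reads (4 higher, 5 lower) and 8 relative to the let-7 total, where leaving out a library gave 1 or 2. No fit but Fisher's called a member on the total reads. With clean reads, the changes of let-7j-5p and let-7a-5p turned from −0.04 and −0.06 to 0.0211 and 0.00563. With a library left out on the total reads, let-7a-5p ranged from −0.34 to 0.16, let-7c-5p from −0.69 to 0.18, let-7g-5p from −0.53 to 0.0368 and let-7j-5p from −0.33 to 0.17. Relative to the let-7 total, let-7d ranged from −0.0311 to 0.32. The log2 ratio of the summed share, 1.07, was 0.20 on total reads, and 0.84 without the 10 most abundant miRNAs, let-7f-5p among them.

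Replicate numbers were shared between the ages but came from different hens, and same-numbered libraries did not deviate together (correlations −0.161, 0.23 and 0.239). The block for the replicate number left the counts at 7, 0 and 2 members. Over all miRNAs, 30 were called higher and 38 lower on the counted reads, 22 and 57 with TMM factors, 43 and 25 with upper quartile factors and 0 and 75 on the total reads. With 3 libraries per age, permutation p values cannot fall under 0.1.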

Other observations

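Let-7c-5p was low in L30-2, and so were products of the miRNAs beside it. Let-7c-5p took 0.258% of the let-7 reads of L30-2 and 0.615% to 0.674% of those in the other 5 libraries. In CPM it was also lowest there, at 168 against 185 to 497, but the gap to L20 was small. Its Wilson 95% interval in L30-2, 156.8 to 180.9 CPM, overlapped that in L20-2, 178.6 to 192.5 CPM. In L30-2 miR-99a-5p had 95.2 CPM, against 137 to 193 in the others, and miR-99a-3p had 5.15 against 10.8 to 15.9. MiR-125b-3p had 191 in L30-2 and 312 to 611 in the others, whereas miR-125b-5p, which a second hairpin next to let-7a-2 can also give, had 5118 in L30-2, the second highest value of the 6. Low values in L30-2 were not confined to this locus. The 3 epithelial markers together had 185 CPM in L30-2 and 501 to 703 in the others. How many of all tested miRNAs were lowest in L30-2 was not counted, and a cause tied to the locus was not tested. These miRNAs and this library were chosen after their values were seen. The level rests on 752 reads of let-7c-5p and 425 of miR-99a-5p in L30-2.

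Let-7a-3p and let-7k-3p had 285 and 283 reads in L20-1, 295 and 295 in L20-2, 173 and 167 in L20-3, 203 and 203 in L30-1, 77 and 76 in L30-2, and 71 and 76 in L30-3. Their ratio stayed between 0.934 and 1.04, while the ratio of the 5p products of the same names differed from library to library. Whether the same reads were counted for both was not tested.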
